A study of Sus scrofa domesticus with 4 samples.

Results

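ACP5, SPP1, STC1, RBP4, ITGB3, ITGB1 and ITGAV are 7 pig genes whose products take part in uterine secretion and in attachment of the conceptus. They were found on the array by the RefSeq accession of each probe, matched to the gene symbols of assembly Sscrofa11.1. The 7 genes had 25 of 43603 probes and were 7 of the 3029 genes that could be named in this way. The rule that picked their probes used no measured value, but the genes were chosen with earlier results of these data known. The OXA group was endometrial slices cultured with orexin A (OXA), a neuropeptide also known for its role in feeding and arousal, at 10 nM by the sample labels (10 µM by the design text). The control group was slices cultured without it, and both had been held for 2 h in medium 199 before a further 24 h of culture. The tissue came from 4 Large White x Polish Landrace gilts, aged 7 to 8 months and 15 to 16 days into gestation. Each of 4 arrays paired 1 OXA RNA with 1 control RNA. The sources used here do not say whether the 2 RNAs of an array shared a gilt, and p-values measure the spread between these arrays only.

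In the pig, these days of gestation are when the conceptuses elongate, signal pregnancy and begin to attach to the luminal epithelium without invading it. The glands and the luminal epithelium feed the conceptuses through secreted proteins that carry iron, retinol and minerals. Attachment uses integrins, receptors made of 1 alpha and 1 beta subunit on the cell surface, which bind proteins such as osteopontin. Each array ratio below is a log2 ratio of OXA over control, so that a value of 1 is a doubling.

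By the dye labels of each sample, the OXA RNA carried Cy5 on arrays 1 and 3 and Cy3 on arrays 2 and 4. The text of the labelling protocol instead has OXA in Cy5 every time, and values under that reading are given where they change a direction. The authors' deposited ratios follow the sample labels: they run with Cy5 over Cy3 on arrays 1 and 3 and against it on arrays 2 and 4. The ratios were therefore fitted with an OXA coefficient and a dye coefficient in limma, over 26925 probes. Between 62.4% and 74.5% of all probes were well above background in Cy5, against 31.7% to 56.7% in Cy3. The lowest Cy3 share was on array 1, alone on its slide and scanned 71 days later than arrays 2 to 4. Saturated spots numbered 0, and precision is limited by there being 4 arrays. Among markers tested, 6 of 6 epithelial, 3 of 3 stromal fibroblast, 5 of 5 endothelial and 3 of 3 smooth muscle markers were well above background in all 8 readings. A further stromal marker on the array, THY1, had no tested probe. The 3 erythrocyte markers listed were not among the named genes of the array.

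None of the 7 genes passed an adjusted p of 0.05 in limma. The lowest adjusted p among their probes was 0.764, which was also the lowest of the whole array, where 0.00% of the 26925 probes passed. At an unadjusted p under 0.05 the count was 0 of 24 member probes, against 1.89% of all probes, and with a fold of at least 1.2 as well it was 0 of 24, against 1.32%. All 25 member probes were well above background in all 8 readings, and 24 were tested because 1 probe of ITGAV was marked as an outlier spot on array 4. Of the 24, 10 lay above 0 and 14 below, with a median of -0.06, beside a median of 0.02 over all tested probes. A probe of ITGB1 was the 1 member probe above 0 on 4 of 4 arrays, against 7.67% of all probes, and the 2 below 0 on 4 of 4 arrays, against 4.25%, were those of STC1 and of the dimmest ITGAV probe. The levels in the 4 OXA RNAs and the 4 control RNAs overlapped for all 24 member probes, and they did not overlap for 0.501% of all tested probes. These ratios follow loess normalization within each array. With median centring instead, which put the median of all tested probes at 0.14, ACP5 was at 0.15, RBP4 at 0.25 and ITGAV at 0.21, each on the other side of 0 from the values below.

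**Figure D1:**
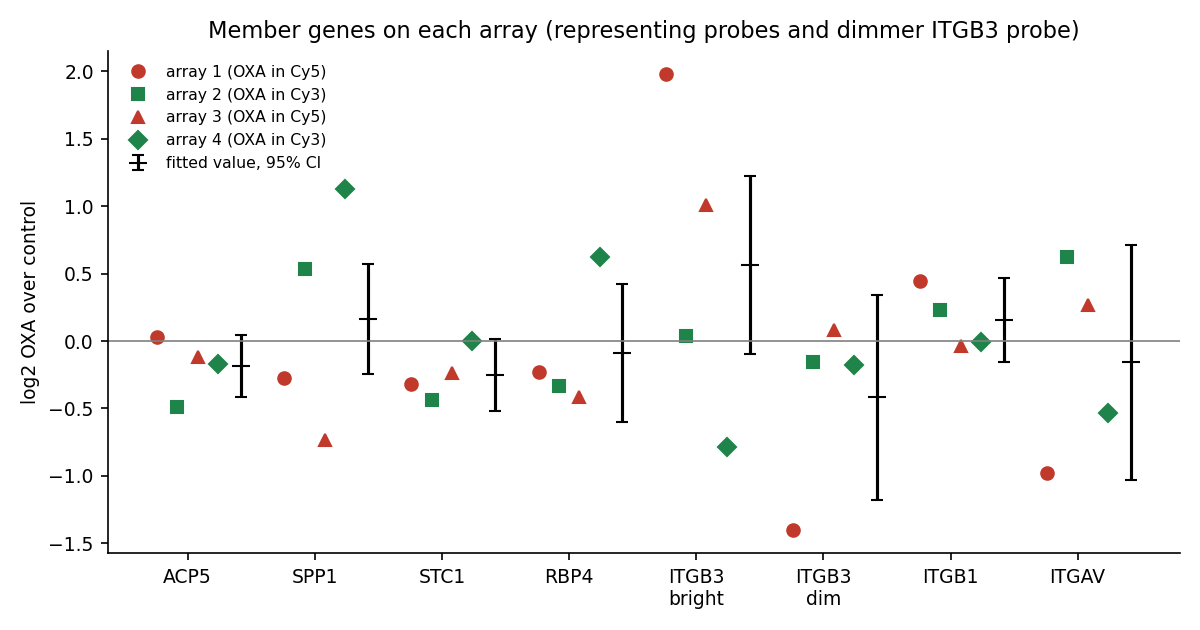
Log2 ratio of OXA over control on each of the 4 arrays for the brightest probe of each gene and for the dimmer ITGB3 probe, with red points where OXA was in Cy5 and green points where it was in Cy3. Black bars are the fitted value with its 95% confidence interval, and every interval includes 0.

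ACP5 encodes uteroferrin, an iron-containing acid phosphatase that the uterine glands of the pig secrete and that carries iron to the conceptus. Its brightest probe gave ratios of 0.03, -0.49, -0.12 and -0.17 on arrays 1 to 4. The OXA RNA was the dimmer of the pair on arrays 2 to 4 and level with control on array 1. The log2 normalized intensity averaged 17.18 ± 0.45 in OXA RNA and 17.37 ± 0.27 in control RNA (SD, n = 4 each), and the ranges of the groups overlapped. The fitted value was -0.19 (SE 0.08, 95% confidence interval -0.42 to 0.04), a fold of 0.879, with an adjusted p of 0.764. The other 3 probes lay on the same side of 0, at -0.20, -0.29 and -0.34, but with wider intervals. The brightest of these 3 gave -0.71, -0.36, -0.33 and 0.60 on arrays 1 to 4, so that array 4 was opposite to the rest. The dimmest gave -1.04, -0.36, -0.03 and 0.05, with the OXA RNA furthest below control on array 1. Over the 4 probes the median ratio was -0.87, -0.42, -0.07 and 0.17 on arrays 1 to 4, a spread between arrays (SD 0.45) that exceeded the mean spread between probes of the same array (SD 0.29). With OXA read as Cy5 on every array the brightest probe was 0.14, on the other side of 0, which is the fitted dye effect of this probe. In slices of whole tissue, fewer cells of a type and less RNA per cell cannot be told apart.

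SPP1 encodes osteopontin, a secreted phosphoprotein with an RGD motif that binds integrins and that, in the pig, is made by the luminal epithelium near the conceptus. Its brightest probe gave -0.27, 0.54, -0.74 and 1.13 on arrays 1 to 4. The OXA RNA was lower on both arrays where it carried Cy5 and higher on both arrays where it carried Cy3. The log2 normalized intensity averaged 13.22 ± 0.40 in OXA RNA and 13.05 ± 0.55 in control RNA (SD, n = 4 each), with overlapping ranges. The fitted value was 0.16 (SE 0.14, interval -0.24 to 0.57), with an adjusted p of 0.764. The fitted dye effect of this probe was -0.67, larger in size than that of 99.6% of tested probes and larger than its own OXA value. The other 3 probes gave 0.06, -0.10 and -0.09, and each was below 0 on arrays 1 and 3 and above 0 on arrays 2 and 4. Under the reading of OXA in Cy5 on every array, the SPP1 value is this same dye effect, -0.67, on the other side of 0. That fit takes the mean of Cy5 over Cy3, so the 2 values are not separate results. The adjusted p of SPP1 in limma ran from 0.275 to 1.00 over the alternatives. The median over its 4 probes was -0.018.

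STC1 encodes stanniocalcin, a secreted glycoprotein of calcium and phosphate balance that is present in the uterine luminal epithelium of pregnant pigs. It had 1 probe, with ratios of -0.32, -0.44, -0.24 and 0.00 on arrays 1 to 4. The OXA RNA was dimmer on arrays 1 to 3 under either dye, and just below control, by less than the second decimal, on array 4. The log2 normalized intensity averaged 10.56 ± 0.20 in OXA RNA and 10.81 ± 0.33 in control RNA (SD, n = 4 each), and the ranges overlapped. The fitted value was -0.25 (SE 0.10, interval -0.52 to 0.02), a fold of 0.841, with an unadjusted p of 0.0605 and an adjusted p of 0.764. The dye effect after loess was small, at -0.03. Median-centred ratios of STC1 were instead 0.61, -0.78, 0.11 and -0.14 on arrays 1 to 4, with a fitted value of -0.05. OXA was then above control on both arrays where it carried Cy5 and below it on both where it carried Cy3. The lower ratio under either dye was thus not kept under that scaling. The size of the STC1 value also depended on how background was handled, at -0.62 with none subtracted and -0.81 in the ratio of the Agilent software. In that software's ratio the arrays gave -0.72, -0.74, -1.86 and 0.09, so that array 3 was the lowest and array 4 was the exception again. The adjusted p of STC1 in limma was 0.758 and 0.687 in these versions, and from 0.289 to 1.00 over all alternatives.

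RBP4 encodes the plasma carrier of retinol, which the endometrium and the conceptuses of the pig both secrete. Its brightest probe gave -0.23, -0.33, -0.41 and 0.62 on arrays 1 to 4. The OXA RNA was dimmer on 3 arrays and brighter on array 4. The log2 normalized intensity averaged 17.50 ± 0.32 in OXA RNA and 17.59 ± 0.17 in control RNA (SD, n = 4 each), with overlapping ranges. The fitted value was -0.09 (SE 0.18, interval -0.60 to 0.42), with an adjusted p of 0.845. Its other 2 probes gave -0.07 and -0.06, and both again were above 0 on array 4 alone, at 0.60 and 0.75. The 3 probes thus differed little within an array (mean SD 0.17) while their median moved between arrays (SD 0.45). Without array 2 the value of the brightest probe was 0.15, so its direction rests on that array.

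**Figure D2:**
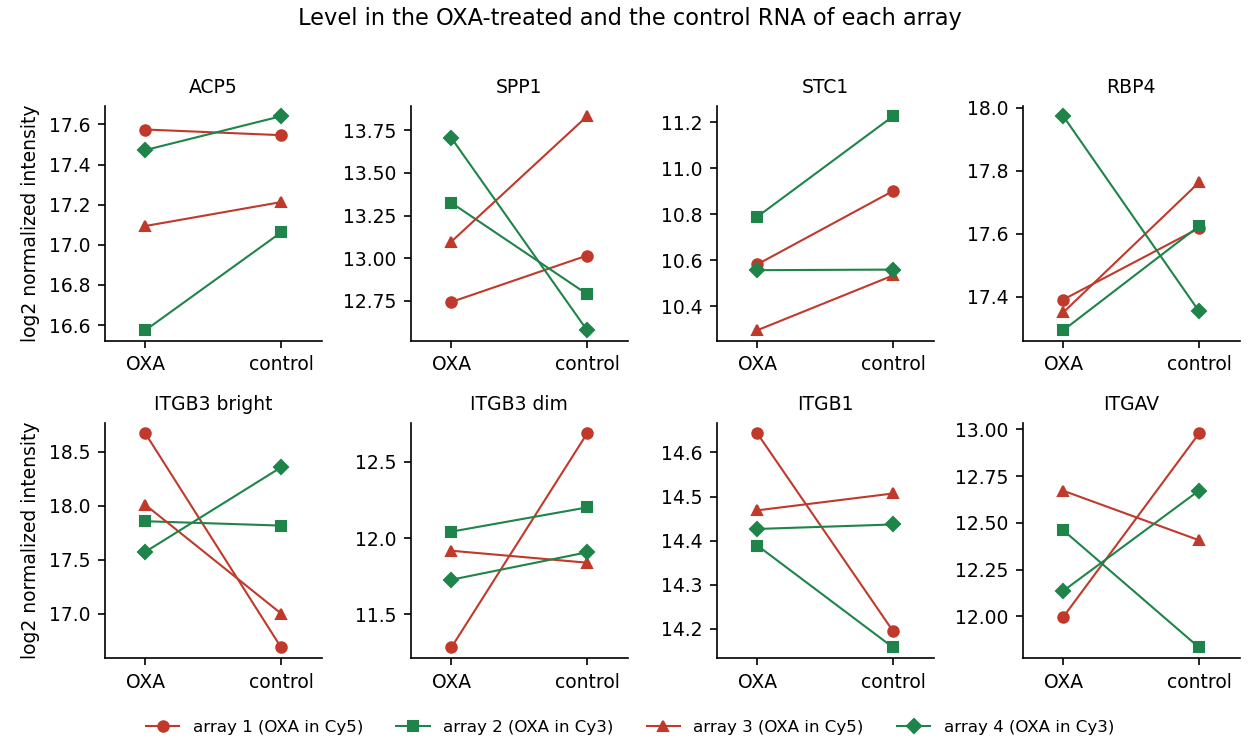
Log2 normalized intensity in the OXA RNA (left) and the control RNA (right) of each array, joined by a line for each array, for the brightest probe of each gene and the dimmer ITGB3 probe. The lines slope both ways within each panel, except for STC1, where the OXA RNA is lower on 3 arrays and almost level with control on array 4.

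ITGB3 encodes the beta 3 subunit, which pairs with the alpha v subunit to form a receptor for osteopontin and vitronectin. Its 2 probes disagreed. The brighter gave 1.98, 0.04, 1.01 and -0.78 on arrays 1 to 4, so that OXA was clearly higher on both arrays where it carried Cy5, level with control on array 2 and lower on array 4. The dimmer gave -1.40, -0.16, 0.08 and -0.18, so that OXA was far lower on array 1, where the brighter probe had its highest ratio. The fitted values were 0.56 (SE 0.23, interval -0.10 to 1.22; a fold of 1.48) for the brighter and -0.42 (SE 0.27, interval -1.18 to 0.34; a fold of 0.750) for the dimmer, each with an adjusted p of 0.764. For the brighter probe, log2 normalized intensity averaged 18.03 ± 0.46 in OXA RNA and 17.46 ± 0.76 in control RNA (SD, n = 4 each). For the dimmer it averaged 11.74 ± 0.33 in OXA RNA and 12.16 ± 0.39 in control RNA. The groups overlapped for each probe.

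The brighter ITGB3 probe was among the brightest of the array. In Cy5 only 3, 28, 3 and 1 of the 43603 probes were brighter on arrays 1 to 4, and its Cy5 signal was 84.5%, 69.8%, 91.5% and 88.1% of the value at which the scanner files mark saturation. In Cy3 between 50 and 269 probes were brighter. Its fitted dye effect was 0.93, larger in size than that of 99.9% of tested probes. Which of the 2 probes follows the ITGB3 transcript was not tested. Leaving out array 1 gave 0.32 for the brighter and -0.05 for the dimmer probe, and the 2 probes had opposite signs under all 14 alternatives.

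ITGB1 encodes the beta 1 subunit, which pairs with many alpha subunits and takes part in binding of collagen, laminin and fibronectin. Its brightest probe gave 0.45, 0.23, -0.04 and -0.01 on arrays 1 to 4. The OXA RNA was brighter on arrays 1 and 2 and level with control on arrays 3 and 4. The log2 normalized intensity averaged 14.48 ± 0.11 in OXA RNA and 14.32 ± 0.17 in control RNA (SD, n = 4 each), with overlapping ranges. The fitted value was 0.16 (SE 0.11, interval -0.15 to 0.47), with an adjusted p of 0.764. Of its 6 probes 5 lay above 0, from 0.16 to 0.26, and 1 was at -0.04. The probe A_72_P652927 was above 0 on 4 of 4 arrays, at 0.37, 0.27, 0.11 and 0.10, and its fitted value of 0.21 (SE 0.08) had the lowest unadjusted p of all member probes, 0.0523. Its OXA and control ranges overlapped all the same, at 13.77 to 14.23 in OXA RNA against 13.54 to 13.96 in control RNA. On array 3 this probe was instead -0.03 in the Agilent ratio and -0.10 with no background correction. Median-centred, it gave 1.58, -0.58, 2.12 and -0.98 on arrays 1 to 4, above 0 only where OXA carried Cy5. The same sign on 4 of 4 arrays was thus not kept under these versions. The 6 probes target 1 gene and are not replicates of the treatment.

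ITGAV encodes the alpha v subunit, the partner of beta 3 and of several other beta subunits in receptors for RGD proteins. Its brightest tested probe gave -0.98, 0.63, 0.26 and -0.54 on arrays 1 to 4. The OXA RNA was lower on arrays 1 and 4 and higher on arrays 2 and 3, which is not a split by dye. The log2 normalized intensity averaged 12.32 ± 0.31 in OXA RNA and 12.47 ± 0.49 in control RNA (SD, n = 4 each), with overlapping ranges. The fitted value was -0.16 (SE 0.31, interval -1.03 to 0.71), with an adjusted p of 0.838, and it was 0.15 without array 1 and 0.13 without array 4. The other tested probes gave 0.02, 0.03 and -0.20. The first 2 of these had the same signs on each array as the brightest. The last, the dimmest, was below 0 on 4 of 4 arrays, from -0.62 on array 1 to -0.01 on array 4. Median-centred, this dimmest probe gave 0.24, -0.33, 0.24 and -0.14 on arrays 1 to 4, above 0 only where OXA carried Cy5. The probe left out of the test gave -0.11, 0.47 and 0.50 on arrays 1 to 3. On array 1 the brightest ITGAV probe and the dimmer ITGB3 probe were both low, while the brighter ITGB3 probe was high.

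**Figure D3:**
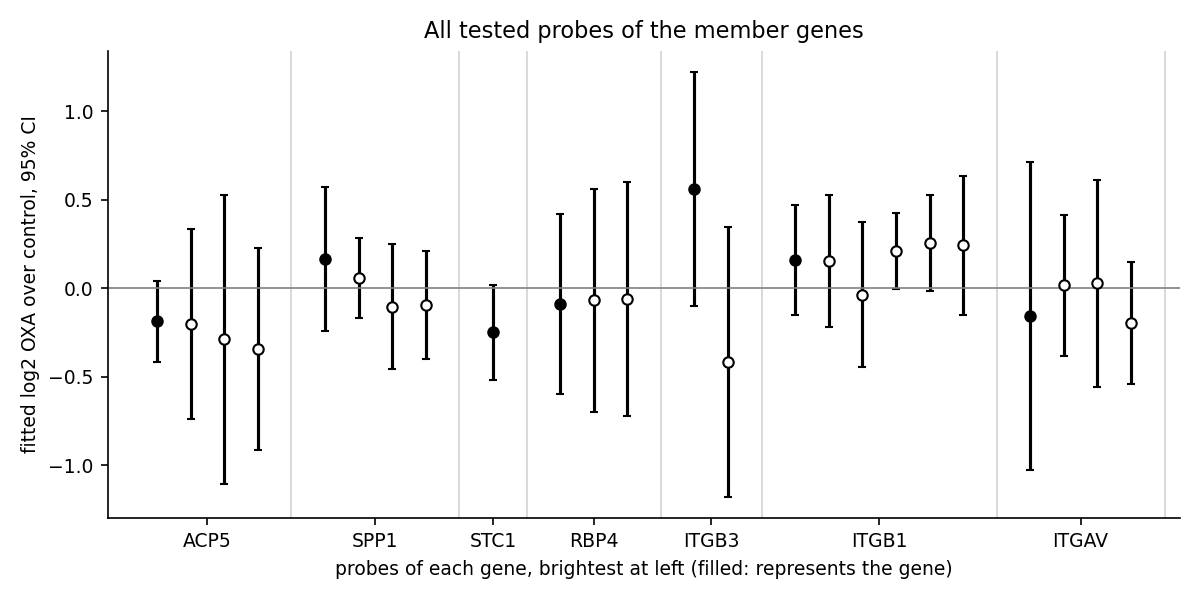
Fitted log2 ratio of OXA over control with its 95% confidence interval for the 24 tested probes of the 7 genes, with the brightest probe of each gene at the left of its block and filled. Every interval includes 0, the 6 ITGB1 probes lie close together, and the 2 ITGB3 probes lie on opposite sides of 0.

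How far probes of a gene differed on the same array also varied between genes. The mean SD between probes was 0.17 for RBP4, 0.24 for ITGB1, 0.26 for ITGAV, 0.28 for SPP1 and 0.29 for ACP5, but 0.90 for ITGB3. The SD between arrays of the probe median was 0.45 for ACP5, RBP4 and ITGAV, 0.51 for SPP1 and 0.44 for ITGB3, and 0.18 for both ITGB1 and STC1. The fitted dye effect was larger in size than the OXA value for 11 of the 24 probes.

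Genes that work with the 7 were counted in lists, each gene by its brightest kept probe. Of the 2407 named genes tested, 1026 lay above 0 and 1381 below, with a median of -0.02, and none passed. Other integrin subunits split evenly, 3 above and 3 below 0 of 6 tested (median 0.02). ITGB2, the shared beta subunit of leukocyte integrins, was -0.28 (SE 0.11). ITGA2, the alpha subunit of a collagen receptor, was -0.25 (SE 0.16), and its 3 probes ran from -0.25 to 0.01. ITGB5, another beta partner of alpha v, was 0.19 (SE 0.12). Of the 12 integrin ligands tested, 7 were above and 5 below 0 (median 0.05). CTGF, a matricellular protein, was -0.69 (SE 0.37), POSTN, periostin of the matrix, was 0.66 (SE 0.46) and DMP1, an RGD phosphoprotein of the same family as osteopontin, was 0.24 (SE 0.15). The CTGF and POSTN values come mostly from array 1, with -2.15 and 2.65 there, and between -0.46 and 0.12 on the rest. Of the 6 adaptors and other proteins behind integrins, 3 were above and 3 below 0 (median 0.04). VCL, vinculin, which links adhesions to actin, was 0.21 (SE 0.07) with 0.50, 0.01, 0.26 and 0.09 on arrays 1 to 4. Its 4 probes ran from 0.06 to 0.21. VCL alone of these lists of adhesion genes had an unadjusted p under 0.05 in limma, beside 80 of all 2407 named genes tested. ACTN1, an actin cross-linker, was -0.20 (SE 0.13), with its other probe at 0.03, and CAV1, the caveolar coat protein, was 0.13 (SE 0.13).

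No gene of the lists nearest to the secreted proteins passed either. Of the 6 genes of retinol transport and signalling tested, 2 were above and 4 below 0 (median -0.02). RXRB, a retinoid X receptor, was -0.17 (SE 0.13) and CRABP1, a retinoic acid carrier, was -0.22 (SE 0.26). Of 21 other secreted or glandular proteins, 8 were above and 13 below 0 (median -0.06). PTGES, which makes prostaglandin E, was 0.15 (SE 0.07) and IGFBP3, a binding protein of insulin-like growth factors, was -0.24 (SE 0.12). FST, follistatin, was 0.18 (SE 0.09), with its other probe at 0.02. Of 10 lysosomal enzymes and membrane proteins, 3 were above and 7 below 0 (median -0.14), with LIPA, the acid lipase, at -0.27 (SE 0.11) and GUSB, beta-glucuronidase, at 0.18 (SE 0.10). Of 9 iron handling genes, 1 was above and 8 below 0 (median -0.16). With median centring the lysosomal list had 9 above and 1 below 0 and the iron list 6 above and 3 below, beside 1890 above and 517 below of all named genes. FTL, the ferritin light chain, was -0.44 (SE 0.07) with an unadjusted p of 0.00301 and an adjusted p of 0.764. Its arrays gave 0.06, -1.09, 0.18 and -0.90, so that OXA was lower only where it carried Cy3. HMOX1, which frees iron from heme, was -0.40 (SE 0.17), at 0.21 on array 1 and from -0.70 to -0.51 on arrays 2 to 4. Its 3 probes ran from -0.40 to -0.03. SLC11A2, an iron importer, was -0.16 (SE 0.11), with its other probe at -0.01.

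Markers of the cell types that make these proteins also moved between arrays. The median ratio of the 6 epithelial markers was -0.84, -0.34, 0.00 and 0.53 on arrays 1 to 4, which ran in the same order as the median of the ACP5 probes. The mean log2 level of those markers ran from 13.38 to 13.68 over the OXA RNAs and from 13.14 to 14.27 over the control RNAs. The 3 stromal fibroblast markers had a median of 1.44 on array 1 and of 0.02, 0.09 and 0.26 on arrays 2 to 4. Their mean level ran from 12.30 to 14.10 in OXA RNA and from 12.44 to 13.78 in control RNA. Array 1, with lower epithelial and higher stromal markers in its OXA RNA, was also the array with the lowest ratios of the brightest ITGAV probe, of the dimmer ITGB3 probe and of 3 of 4 ACP5 probes. The dimmer SPP1 probes were lowest on array 1 as well, at -0.55, -0.73 and -0.66. So were the dimmest RBP4 probe, at -0.59, and ITGAV probes at -0.46 and -0.62. Some other probes, the brightest of several genes among them, did not share this. The brightest probes of ACP5, ITGB1 and ITGB3 had their highest ratios on array 1, at 0.03, 0.45 and 1.98. Those of SPP1 and RBP4 were lowest on array 3, at -0.74 and -0.41, and that of STC1 on array 2, at -0.44.

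The 5 endothelial markers had median ratios of 0.65, -0.51, -0.06 and -0.41, the 3 smooth muscle markers 0.01, -0.96, 0.57 and -0.21, and the 4 myeloid markers 0.50, -0.59, 0.33 and -0.73. Each of these lists was highest on array 1 or 3 and lowest on array 2 or 4, as was the brighter ITGB3 probe, with its highest ratio on array 1 and its lowest on array 4. Mean log2 levels of the endothelial markers ran from 12.47 to 12.91 in OXA RNA and 12.08 to 13.29 in control RNA. For smooth muscle they ran from 12.15 to 12.82 in OXA RNA and 12.28 to 13.32 in control RNA, and for myeloid markers from 11.02 to 12.15 in OXA RNA and 10.94 to 12.36 in control RNA. The median ratio of the 7 lymphocyte markers lay between -0.28 and 0.18 on the 4 arrays, with 1 of 7 well above background in all 8 readings. Of the 3 platelet markers tested, PPBP was -0.55 (SE 0.11) and ITGA2B, which pairs with beta 3 in platelets, was 0.09 (SE 0.10). The part that the mix of cell types and the dye played in the ratios of the 7 genes was not tested.

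**Figure D4:**
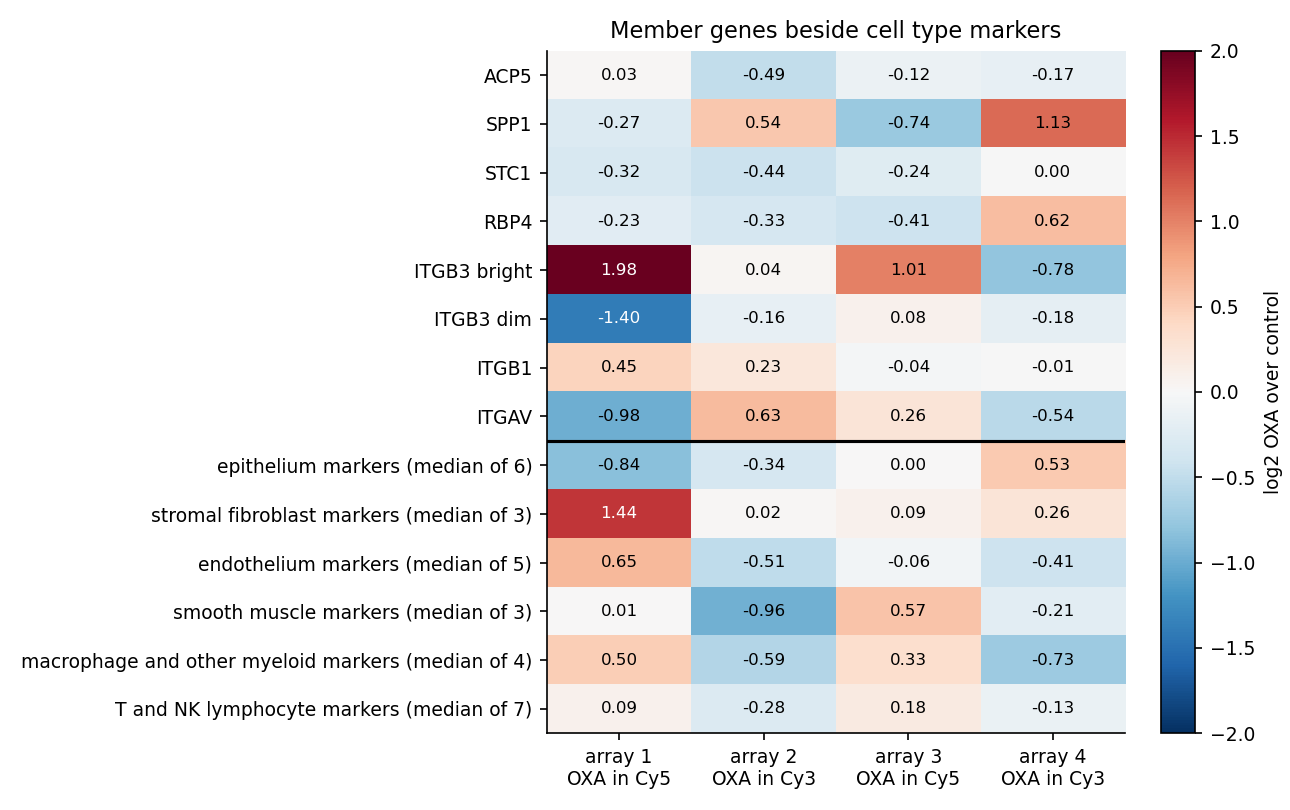
Log2 ratio of OXA over control on each array for the 7 genes (the dimmer ITGB3 probe included) and, below the line, the median ratio of each list of cell type markers. On array 1 the epithelial markers were at -0.84 and the stromal markers at 1.44, and on array 4 the epithelial markers were at 0.53.

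For the 4 genes whose ratios spanned at least 1 on the log2 scale, the most similar named genes were found by the root mean square difference over the 4 arrays. For SPP1 these were HSP90B1 and SSR1, of the endoplasmic reticulum, at 0.37 and 0.40, and PRDX6, a peroxiredoxin, at 0.39, against a median of 0.79 over 2406 genes. For RBP4 they were PLP2, a membrane protein, ITPK1, an inositol phosphate kinase, and TSPAN1, a tetraspanin, at 0.14, 0.15 and 0.16, against 0.46. All 3 were below 0 on arrays 1 to 3 and above it on array 4. For the brighter ITGB3 probe they were the chemokine CXCL10, the vitamin D hydroxylase CYP24A1 and the mucin MUC13 at 0.24, 0.31 and 0.35, against 1.19. CYP24A1 gave 2.41, 0.28, 1.01 and -1.15 on arrays 1 to 4. For ITGAV they included MSMO1, an enzyme of sterol synthesis, and PMAIP1, a BCL2 family protein, at 0.29 and 0.31, against 0.70. These likenesses rest on 4 arrays that all genes share, and were not tested.

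**Figure D5:**
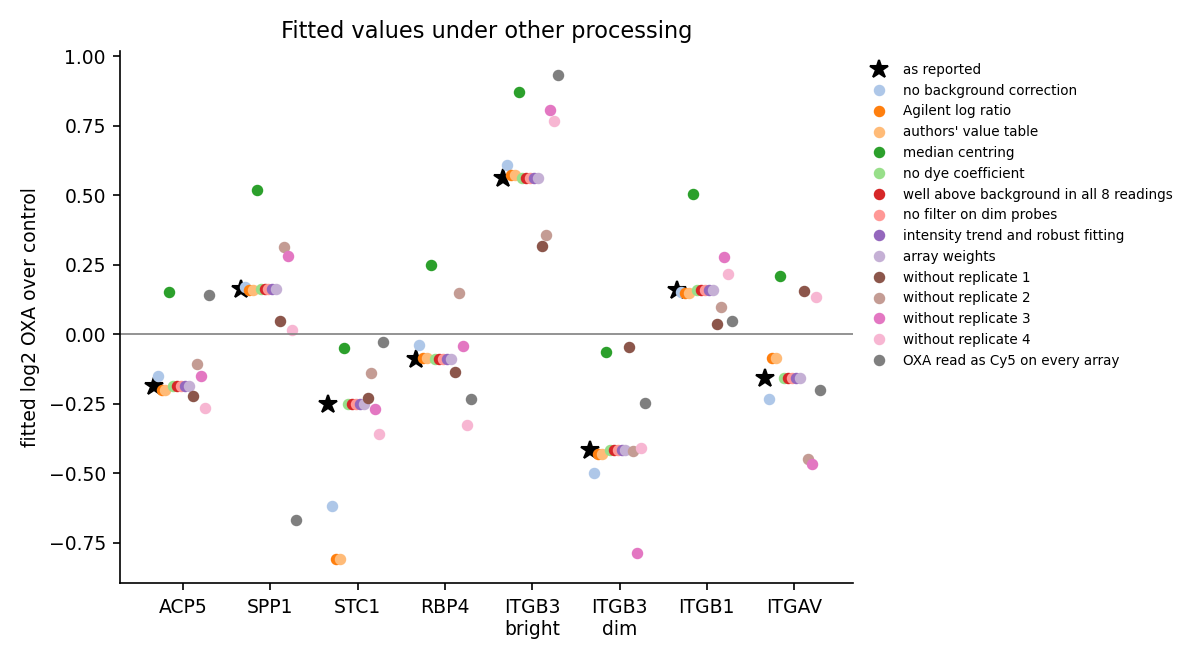
Fitted log2 ratio of OXA over control for the brightest probe of each gene and the dimmer ITGB3 probe as reported (star) and under each of 14 other ways of processing (points). STC1 spread from -0.81 to -0.03, SPP1 was -0.67 where OXA was read as Cy5 on every array, and the 2 ITGB3 probes stayed on opposite sides of 0.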

How the data were processed

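Per the file headers, scanner images were read with version 10.7.3.1 of Feature Extraction (Agilent), which gave the median intensity of each spot and its local background in Cy5 and Cy3, and a log10 ratio of processed signals. The deposited series table holds log2 ratios of the authors' processed values. For the member probes with a value there, these equalled the Agilent ratio in log2, as OXA over control, to the second decimal. For the members, the alternatives with the Agilent ratio and with the authors' ratios are thus nearly the same. Over 43420 probes its columns had slopes of 1.06, -1.00, 1.04 and -1.03 on the scanner's Cy5 over Cy3. The correlations were 0.89, -0.97, 0.69 and -0.80, and how the columns were centred is unknown. The signs of the slopes follow the dye labels of the samples.

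Background was corrected with normexp (offset 50), arrays were normalized by loess, and limma 3.58.1 (R 4.3.3) fitted OXA and dye coefficients with 2 residual degrees of freedom. Probes well above background in at least 4 of 8 readings were kept, and those with an outlier-marked spot (135) were left out. Levels were normalized between arrays by Aquantile. P-values were two-sided and adjusted over 26925 probes by Benjamini-Hochberg. A gene is represented by its brightest kept probe. Named were all members, 3 genes per list by lowest unadjusted p, and 3 most similar genes for members spanning at least 1. Some genes that this rule names are not reported here. The members and lists were chosen with earlier results of these data known. Sequences and coordinates were not used here. Alternatives changed the background correction, scaling, dye term, filter, variance model and weights, or left out an array.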

Additional observations from a re-analysis of the deposited data

How the results depend on the processing

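No alternative gave a probe with an adjusted p under 0.05 in limma, over 14 other fits of all probes, in which 260 to 8032 probes had an unadjusted p under 0.05. With median centring in place of loess, ACP5 was 0.15, ITGAV 0.21 and RBP4 0.25, where the median of all probes was 0.14. With OXA read as Cy5 on every array, ACP5 was 0.14 and SPP1 -0.67, which are the dye effects of the reported fit. As the median over its probes SPP1 was -0.018. Leaving out 1 array at a time gave -0.27 to -0.11 for ACP5, 0.02 to 0.31 for SPP1, -0.36 to -0.14 for STC1, -0.33 to 0.15 for RBP4, 0.32 to 0.81 for the brighter and -0.79 to -0.05 for the dimmer ITGB3 probe, 0.04 to 0.28 for ITGB1 and -0.47 to 0.15 for ITGAV. RBP4 was above 0 without array 2 (0.15), and ITGAV without array 1 (0.15) or array 4 (0.13). STC1 was -0.62 with no background correction, -0.81 with the Agilent ratio and -0.05 when median-centred. ITGAV, at -0.16 as reported, was -0.08 with the Agilent ratio. The cause of these shifts was not tested. Array 1 is alone on its slide, so values within the slide of arrays 2 to 4 are those without array 1. Every fit used ratios within arrays, so OXA and control RNA were compared in pairs by array. Pairs by gilt could not be fitted, because the sources used here do not say which RNAs shared a gilt.

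Of all probes, 356 passed an unadjusted p of 0.05 with a fold of at least 1.2. With no background correction the count was 1405, with the Agilent ratio 1828, with the authors' own ratios 1824, with median centring 4292, with array weights 193 and with OXA read as Cy5 throughout 681. Leaving out 1 array gave 286 to 3125, the highest without array 3 and 2050 without array 4, fits that have 1 residual degree of freedom. Member probes with an unadjusted p under 0.05 in limma numbered 7 of 24 with median centring, beside 4524 of all 26925 probes. Without array 3 they numbered 7 of 24, beside 8032 of 26974, and without array 4 they numbered 6, beside 2050 of 26942. Under the rest they numbered 0 to 4, beside 260 to 1828 of all probes, and as reported 0, beside 509. Among the brightest probes of the 7 genes, that of STC1 was the dimmest and moved most with the background correction.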
